A study of Homo sapiens with 30 samples.

Results

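The change in RNA enrichment of TIA1 granules when cells are exposed to arsenite was measured in the wild-type (WT) line of a HEK293 study, from 12 of its 30 RNA-seq libraries. The members are the 4 groups of the WT line in which both fractions were sequenced, with 3 libraries in each, chosen by their titles. For every gene the ratio of granule to cytosol level without arsenite was subtracted, as log2, from the same ratio with arsenite, so that a positive value is a gain of granule enrichment under arsenite and a negative value a loss. On this scale 1 unit is a factor of 2. In all, 18141 genes were tested.

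HEK293 is an established cell line from human embryonic kidney. The Flp-In T-REx version used here holds a single docking site for a transgene, which is switched on by tetracycline. All 12 libraries came from derivatives that carry GFP fused to wild-type TIA1a and had been given tetracycline; those of the arsenite groups were then given 0.5 mM sodium arsenite for 60 min. The other line of the study carries GFP-TIA1a with the change found in Welander distal myopathy (WDM), and its 12 libraries of the same design share no library with the WT line. The cytosol groups are cell extracts, and the granule groups are RNA of a high-speed pellet pulled down through GFP and washed with salt and urea. The fusion protein is made in excess of the cells' own TIA1, the same pull-down was made from unstressed cells, and no mock pull-down was analysed here. Nothing in the labels says whether replicates came from separate cultures, so p-values measure only the spread between these libraries, which may be technical.

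Stress granules are assemblies of RNA and RNA-binding proteins that form when translation initiation is blocked, as it is by arsenite. TIA1 and its paralog TIAL1 are granule proteins that bind U-rich RNA, and long, poorly translated mRNAs are known to be enriched in granules. mRNAs of secreted and membrane proteins are translated at the endoplasmic reticulum, whereas ribosomal protein mRNAs begin with a pyrimidine tract, the TOP motif, through which their translation is switched off under stress.

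Sequences are shown first for the classes described below. The start-site windows hold 10 bases before the RefSeq start (GRCh38.p14) and 20 from it, with the unbroken pyrimidine run that begins with C at the start in capitals. They are shown because the genes lost granule enrichment and share this run: small nucleolar RNA host gene SNHG12 (chr1:28581854-28581883, minus strand), elongation factor EEF2 (chr19:3985444-3985473, minus), and ribosomal protein genes RPS12 (chr6:132814559-132814588, plus), RPS3 (chr11:75399508-75399537, plus) and RPL12 (chr9:127451387-127451416, minus).
SNHG12: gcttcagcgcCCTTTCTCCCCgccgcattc
EEF2: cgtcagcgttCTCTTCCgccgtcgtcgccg
RPS12: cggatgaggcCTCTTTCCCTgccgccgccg
RPS3: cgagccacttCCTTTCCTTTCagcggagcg
RPL12: cgatttccggCCTCTCggctttcggctcgg

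The next windows are the 30 bases richest in T of the 3′ UTR, within 1 exon of the GENCODE v44 canonical transcript (GRCh38), with runs of 5 or more T in capitals. They show how far U-rich stretches separate genes that gained from genes that lost. DPY19L1 (chr7:34930360-34930389, minus), DCK (chr4:71029536-71029565, plus) and ITGB1 (chr10:32900748-32900777, minus) gained granule enrichment. SPTBN1 (chr2:54670944-54670973, plus) and SPTAN1 (chr9:128633381-128633410, plus) lost it.
DPY19L1: tctttagTTTTTTTcttcctatttaTTTTT
DCK: TTTTTgaccagtttcttttcttttgTTTTT
ITGB1: ttgaatttattttattaTTTTTattttgtt
SPTBN1: TTTTTgggTTTTTTgTTTTTTTTTTattct
SPTAN1: ttgctgcatgtccgctcctctgtgtgctct

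Read side by side, the windows of the genes that gained all hold a run of 5 T, but so does that of SPTBN1. The word TTTTT, counted with overlaps on the transcript strand, occurred 20 times in the 2692 bases of the DPY19L1 3′ UTR, 25 times in the 1536 bases of DCK and 11 times in the 1252 bases of ITGB1. It occurred 42 times in the 2877 bases of SPTBN1 and 0 times in the 328 bases of SPTAN1. The windows were chosen after the genes' values were seen.

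The total count was 5906167 to 26935119 per WT library, so that a count of 0 allows up to 0.111 to 0.508 CPM (read counts scaled to a common library total). Of the variance among the 12 libraries, 77.6% lay along a first principal component that split cytosol from granules, and 7.66% along a second on which granule libraries with and without arsenite fell on opposite sides. Cytosol replicate 1 without arsenite stood apart from the other 2 libraries of its group, at -80.7 on the first component against -122 and -125, nearer to the arsenite cytosol libraries at -60.9 to -72.0. Its part in the results was not tested beyond leaving it out, and counts of called members without it are given below for the classes described where they moved by over 1.5 times. TIA1 itself had 2 counts over the 12 libraries, with 99.3% of its exonic bases within the span of a second gene of the same strand, so the transgene could not be checked. Of the markers of HEK293, VIM had 85188, CDH2 48648, KRT8 19077 and NEFL 17913 counts over the 12 libraries, and NEFM had 26. Of 8 defining markers of other cell types, CD3E and HBB were at 0 and the highest, PECAM1, had 58.

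Arsenite changed the granule enrichment of 5704 genes in the WT line, 31.4% of those tested. The gain was called for 2180 genes (12.0%) and the loss for 3524 (19.4%), at an edgeR Benjamini-Hochberg adjusted p under 0.05. A gain of at least 1 log2 unit was called for 870 genes (4.80%) and a loss of that size for 2020 (11.1%). The median over all genes was -0.21 with TMM scaling, and class medians below are read against it. Counts called in the WT classes below are read against the shares over all genes tested, 12.0% gaining and 19.4% losing. When each library's dependence on transcript length was removed through offsets, 3097 genes gained, 2477 lost and the median was -0.003, and the fit without a filter on low counts gave 2856 gaining and 2041 losing. Without cytosol replicate 1 the counts were 2156 gaining and 3723 losing.

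Without arsenite 39.5% of all genes tested were higher in granules than in cytosol and 36.2% were lower. Enrichment without arsenite is subtracted in the change, so calling gains favours genes low in it and calling losses genes high in it. Its median over all genes tested was 0.07. Of the 2180 genes that gained, 894 had a negative log2 enrichment without arsenite and a positive one with it. A further 846 were negative in both conditions and 440 were positive in both. Their level rose with arsenite in the granule fraction for 1799 (15.2% of all genes tested rose there) and fell in cytosol for 372 (3.33% of all genes tested fell there). Of the 3524 genes that lost enrichment, 2206 stayed on the enriched side, 739 crossed from enriched to depleted and 579 were depleted in both conditions. Their level fell in the granule fraction for 2401 (23.1% of all genes tested fell there) and rose in cytosol for 1008 (7.69% of all genes tested rose there). These single-fraction comparisons share libraries with the change of enrichment and are set beside it only as its parts. In such samples fewer granules and less RNA per granule cannot be told apart, since every library is scaled to its own total.

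**Figure D1:**
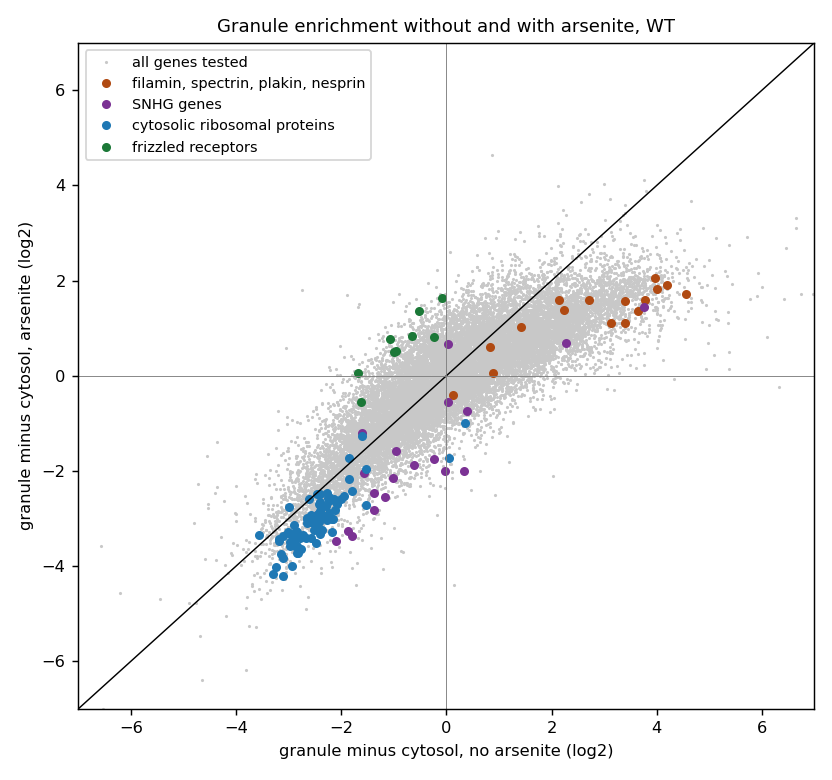
Each point is a gene tested, with its log2 granule-minus-cytosol level without arsenite on the x axis and with arsenite on the y axis, and the diagonal marks no change. The 9 frizzled receptor genes lie above the diagonal, while all 16 filamin, spectrin, plakin and nesprin genes, 19 of 21 small nucleolar RNA host (SNHG) genes and 76 of 81 cytosolic ribosomal protein genes lie below it.

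The largest gain by the naming rule was that of DPY19L1, a C-mannosyltransferase of the endoplasmic reticulum (chromosome 7, 34928876 to 35038271). Its level in the granule fraction was 85.9, 81.2 and 91.4 CPM without arsenite and 331, 201 and 218 CPM with it. In cytosol it was 136, 144 and 141 CPM without and 86.8, 86.5 and 87.2 CPM with arsenite. The groups did not overlap in either fraction, and the directions were opposite. The enrichment gained 2.23 (SE 0.211, edgeR adjusted p 1.53e-07), against 1.22 in the WDM line.

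DCK, the kinase that phosphorylates deoxycytidine, had 30.9, 17.2 and 15.4 CPM in the granule fraction without arsenite and 104, 51.2 and 58.3 CPM with it. In cytosol its 3 libraries had 37.4, 53.3 and 47.9 CPM without and 36.4, 36.3 and 32.4 CPM with arsenite. The granule groups did not overlap and the cytosol groups did not either, though the latter came within about 1 CPM of each other. The gain was 2.19 (SE 0.348, edgeR adjusted p 7.39e-05), and a second gene of the same strand covers 0.301 of the exonic bases of DCK. F2RL1, the protease-activated receptor 2, gained 2.12 (SE 0.243, edgeR adjusted p 1.9e-06), from 32.5, 28.3 and 20.9 to 91.7, 69.7 and 83.2 CPM in the granule fraction. ID2, an inhibitor of helix-loop-helix transcription factors, gained 2.10 (SE 0.262, edgeR adjusted p 4.5e-06), with 16.4, 13.6 and 16.0 CPM in granules without arsenite and 38.3, 39.9 and 35.6 CPM with it. For both genes every granule library with arsenite lay above every one without. The other 6 of the 10 largest gains were those of DUSP19 (2.12), the desmosomal cadherin DSG2 (2.06), C5orf15 (2.03), TMEM185B (2.03), LINC02228 (1.97) and the microtubule-associated protein gene MAP1A (1.96). All 10 were called in each of the 12 fits that left out 1 WT library, as were 1437 of the 2180 genes that gained. The naming rule favours this, since it took the largest called changes with a kept sign in the same fits.

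Of 34 listed genes for translocation and glycosylation in the endoplasmic reticulum, 12 gained and 2 lost, with a median of 0.46. The WDM line had 2 gaining and 8 losing (7.66% and 16.5% of all genes tested there), with a median of -0.09, and the difference between the lines was called for none of them. In cytosol 20 of the 34 fell with arsenite and none rose (3.33% and 7.69% of all genes tested). In the granule fraction 5 rose and 7 fell (15.2% and 23.1% of all genes tested). The median granule change of the list was -0.12, against -0.14 over all genes. PDIA3, a protein disulfide isomerase, gained 1.25 (SE 0.245, edgeR adjusted p 0.000398). Its cytosol level fell from 403, 431 and 460 to 281, 267 and 288 CPM, and its granule level rose from 92.4, 76.6 and 73.0 to 141, 101 and 130 CPM. SSR1, a subunit of the translocon-associated complex, gained 1.27 (SE 0.256) and PDIA6 1.11 (SE 0.232), with edgeR adjusted p of 0.000523 and 0.000739. SRP72 (-0.45) and SEC11C (-0.52) lost, at edgeR adjusted p of 0.0455 and 0.0464, and each was called in at most 2 of the 12 fits without a library. Without cytosol replicate 1 of the unstressed cells 13 gained and 1 lost. With the length offsets 18 of the 34 gained and 0 lost.

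Frizzled receptors, the membrane receptors of Wnt ligands, formed the class with the highest median. This list, like those of integrins and glycosylation enzymes below, was chosen after values were seen. Of 10 genes 9 were tested, and all 9 gained, with a median of 1.49 and values from 1.04 in FZD3 to 1.89 in FZD5. FZD7 had 19.3, 21.7 and 15.7 CPM in granules without arsenite and 59.3, 45.7 and 53.7 CPM with it. Its cytosol level was 39.4, 38.2 and 41.2 CPM without and 30.8, 31.1 and 31.4 CPM with arsenite. The gain of FZD7 was 1.84 (SE 0.219, edgeR adjusted p 2.49e-06), and neither pair of groups overlapped. Summed over the 9 genes, the granule level was 280 to 351 CPM without arsenite and 526 to 704 CPM with it. In the WDM line 8 of the 9 gained, with a median of 1.30. The coding transcript of 5 of the 9 has a single exon, against 2.22% of the 13584 protein-coding genes tested.

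Of 17 integrin subunits with numbered names, which form receptors for extracellular matrix, 7 gained and 2 lost, with a median of 0.30. Without cytosol replicate 3 or granule replicate 3, both without arsenite, 1 of them lost. ITGB1, the common beta chain, had 623, 695 and 695 CPM in cytosol without arsenite and 406, 415 and 421 CPM with it. In granules it had 229, 203 and 208 CPM without and 631, 405 and 434 CPM with arsenite. Its gain was 1.898 (SE 0.234, edgeR adjusted p 3.84e-06), and the groups overlapped in neither fraction. Among 61 glycosylation enzymes picked by gene name, 21 gained and 5 lost (median 0.30), and 3 lost without granule replicate 3 without arsenite. POFUT1, which adds fucose to Notch receptors, went from 114, 116 and 104 to 273, 229 and 286 CPM in granules, a gain of 1.94 (SE 0.18, edgeR adjusted p 1.53e-07). POMK, a kinase of the dystroglycan sugar chain, gained 1.95 (SE 0.289, edgeR adjusted p 2.09e-05), from 538, 525 and 305 to 1330, 1015 and 1171 CPM. POMK was already on the granule side without arsenite, at 0.58, and stood at 2.53 with it.

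Of 213 tested plasma and organelle membrane transporters of the SLC families, 49 gained and 25 lost (median 0.12). The zinc importer SLC39A14 gained 1.63 (SE 0.2, edgeR adjusted p 3.66e-06), and the lysosomal sialic acid transporter SLC17A5 gained 1.56. SLC22A15 (-1.497) and SLC10A7 (-1.26) lost. The number that lost was 15 or 16 without any 1 of cytosol replicates 2 and 3 and granule replicate 3 of the unstressed cells, or of cytosol replicate 2 and granule replicate 3 with arsenite. Of 40 mitochondrial carriers of the SLC25 family, 3 gained (7.5%) and 8 lost (20.0%), against 12.0% and 19.4% of all genes tested. Their median was -0.08, and they were led by SLC25A24 (1.86) in one direction and SLC25A27 (-1.67) in the other. The number that lost was 4 without any 1 of cytosol replicates 1 and 2 of the unstressed cells or cytosol replicates 2 and 3 with arsenite, and 2 without granule replicate 3 of the unstressed cells.

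Of 20 genes of sterol synthesis and uptake, 6 gained and 3 lost (median 0.13). INSIG1, which retains the sterol sensor in the endoplasmic reticulum, had 254, 270 and 268.6 CPM in cytosol without arsenite and 167, 171 and 166 CPM with it. In granules INSIG1 had 80.0, 69.4 and 83.8 CPM without and 194, 148 and 154 CPM with arsenite. It gained 1.74 (SE 0.183, edgeR adjusted p 8.54e-07). The enzymes SQLE (1.16) and SC5D (1.00) gained as well, whereas MVD (-1.12), HSD17B7 (-0.94) and LSS (-0.66) lost.

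**Figure D2:**
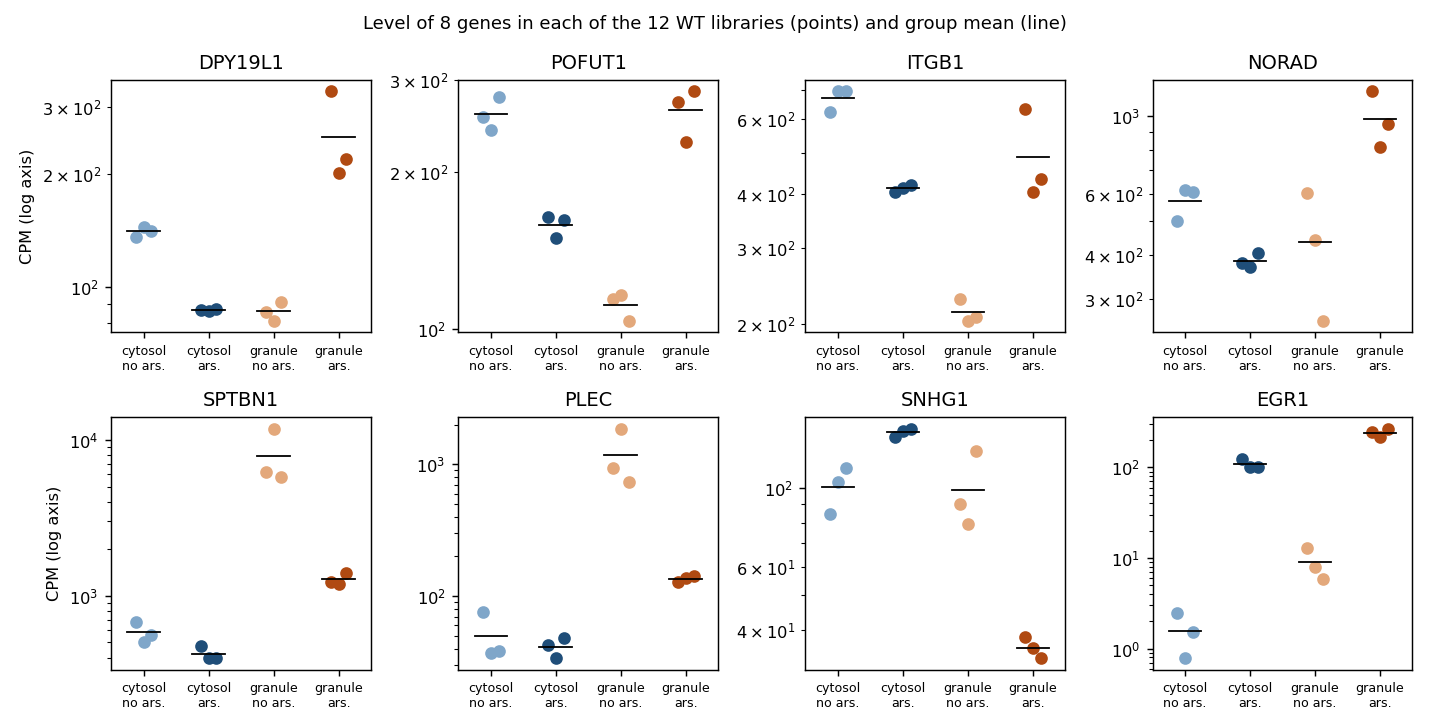
Level of 8 genes in CPM on a log axis, with 1 point per WT library and a line at the mean of each group of 3. The first 4 genes are higher in granules with arsenite than without, SPTBN1, PLEC and SNHG1 are lower, and EGR1 is higher with arsenite in both fractions.

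Genes of stress responses behaved differently from each other. Of 22 immediate-early and early stress genes, 13 rose in cytosol and 19 in the granule fraction, and none fell in either. Over all genes tested 7.69% rose in cytosol and 15.2% in the granule fraction. In enrichment, 6 gained and 5 lost, with a median of -0.21, the same as over all genes. EGR1, a zinc-finger transcription factor, had 2.45, 0.781 and 1.504 CPM in cytosol without arsenite and 124, 101 and 102 CPM with it. In granules EGR1 had 13.0, 7.91 and 5.87 CPM without and 244, 215 and 268.7 CPM with arsenite, so both fractions rose without overlap. The rise was larger in cytosol (6.08) than in granules (4.87), and the enrichment fell by 1.21 on the log2 scale (SE 0.356, edgeR adjusted p 0.0108). Without cytosol replicate 2 of the unstressed cells the change of EGR1 was -0.89 (edgeR adjusted p 0.0648).

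FOSB (-1.89, edgeR adjusted p 0.00692) and IER2 (-0.84, edgeR adjusted p 0.00512) lost enrichment while rising in both fractions. IER2 rose from 36.6, 32.5 and 30.8 to 116, 107 and 120 CPM in cytosol and from 29.6, 20.6 and 18.1 to 40.8, 35.7 and 51.2 CPM in granules. MYC, in contrast, gained 1.11 (SE 0.292, edgeR adjusted p 0.00526). Its cytosol level was 133.6, 138 and 128 CPM without and 105, 98.6 and 115 CPM with arsenite, and its granule level was 70.5, 73.2 and 71.2 CPM without and 112, 109 and 148 CPM with it. CCN1 (1.08) and BTG2 (0.99) gained too.

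Of 14 tested NRF2 and metal-response genes, 3 gained and 0 lost (median 0.34). GCLM, the modifier subunit of the enzyme that limits glutathione synthesis, had 40.1, 37.9 and 33.3 CPM in granules without arsenite and 117, 82.3 and 87.3 CPM with it. Its cytosol level was 76.5, 82.9 and 67.3 CPM without and 83.2, 84.5 and 67.5 CPM with arsenite, which overlap. The gain of GCLM was 1.32 (SE 0.229, edgeR adjusted p 0.00013), that of the catalytic subunit GCLC 0.77 and that of TXNRD1 0.74. Without granule replicate 1 without arsenite, 6 of the 14 gained. Among 15 heat-shock chaperones 1 gained (6.67%, against 12.0% of all genes tested) and none lost. The 1 that gained was DNAJB1 (0.65, edgeR adjusted p 0.0249). DNAJB1 was not called without cytosol replicate 3 or granule replicate 3 of the unstressed cells, and 2 of the 15 gained without cytosol replicate 1. Among 13 genes of the integrated stress response VLDLR (1.18) and PSAT1 (0.56) gained and none lost. In that list 4 gained without granule replicate 1 of the unstressed cells, 1 without cytosol replicate 1 and 0 without granule replicate 1 with arsenite.

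Messages for granule and decay proteins did not move as a group. Of 21 stress granule protein genes 1 gained (4.76%) and 5 lost (23.8%), against 12.0% and 19.4% of all genes tested. Without granule replicate 3 of the unstressed cells or granule replicate 1 with arsenite 3 lost. The median of the 21 was 0.05, and -0.15 without cytosol replicate 1 of the unstressed cells. The enrichment of TIAL1 fell by 1.33 (SE 0.241, edgeR adjusted p 0.000185): its cytosol level was 46.1, 34.4 and 31.4 CPM without and 63.8, 58.0 and 51.7 CPM with arsenite, and its granule level 117, 96.5 and 153 CPM without and 77.2, 81.5 and 67.2 CPM with it. ATXN2 (-1.13) and IGF2BP3 (-0.90) lost, and the helicase gene DDX3X gained 0.69, at an edgeR adjusted p of 0.0406 that held in 3 of the 12 fits without a library. Of 28 processing-body and decay genes 4 gained and 4 lost (median 0.09). These counts fell to 2 and 2 without granule replicate 3 of either treatment, to 1 and 2 without cytosol replicate 2 with arsenite, and were 2 and 5 without cytosol replicate 1. The decapping enzyme DCP2 gained 1.71 (SE 0.261, edgeR adjusted p 3.05e-05), from 410, 261 and 215 to 1091, 624 and 692 CPM in granules, while DCP1B lost enrichment (-0.96).

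NORAD, a cytoplasmic long noncoding RNA that binds Pumilio proteins, gained 1.75 (SE 0.268, edgeR adjusted p 3.05e-05). Its granule level was 604, 443 and 259 CPM without arsenite and 1180, 816 and 950 CPM with it, and its cytosol level 501, 613 and 605 CPM without and 379, 369 and 405 CPM with arsenite. The arsenite libraries were the higher ones in granules and the lower ones in cytosol, with no overlap. Long noncoding RNAs as a class went the other way. Of 3313 tested, 86 gained and 813 lost, with a median of -0.78, against 2047 gaining and 2442 losing of 13584 protein-coding genes, with a median of -0.09. Without cytosol replicate 1, 77 gained and 909 lost. With arsenite 457 of the 3313 rose in cytosol, a larger share than the 7.69% of all genes tested that rose there. In granules 669 fell, a smaller share than the 23.1% of all genes tested that fell there. The median arsenite change of the class was 0.40 in cytosol and -0.28 in granules, against 0.01 and -0.14 over all genes.

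Of 7 tested nuclear-retained long noncoding RNAs 5 lost and 1, TUG1, gained (0.69, edgeR adjusted p 0.0397), with a median of -1.46. GENCODE v44 annotates 1 of the 7 as protein-coding. TUG1 was called in 5 of the 12 fits without a library. KCNQ1OT1, the antisense RNA of an imprinted locus, had 13.2, 7.89 and 5.93 CPM in cytosol without arsenite and 24.0, 25.4 and 21.2 CPM with it. Its granule level was 84.2, 108 and 135 CPM without and 62.6, 88.8 and 74.8 CPM with arsenite, and these groups overlap. The loss was -1.92 (SE 0.326, edgeR adjusted p 0.000135), and the counter's strand setting is not given in the sources used here, so reads of KCNQ1 introns cannot be told apart if strand was not used. For MALAT1, an abundant speckle RNA, enrichment fell by 1.46 on the log2 scale (SE 0.351, edgeR adjusted p 0.00261). Its cytosol level was 378 CPM in replicate 1 and 169 and 157 CPM in the other libraries without arsenite, and 358, 366 and 301 CPM with it. Replicate 1 is the cytosol library that stands apart, and MALAT1 was called in all 12 fits without a library. Without that library 6 of the 7 lost, the median was -1.97 and TUG1 was not called.

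Among 394 genes with a LINC name 10 gained and 134 lost (median -1.05), and among 37 microRNA host genes 1 gained and 19 lost (median -1.28; 2 gained without granule replicate 3 of the unstressed cells). Both lists were chosen after values were seen. In cytosol 77 of the 394 and 9 of the 37 rose with arsenite, where 7.69% of all genes tested rose. In granules 101 of the 394 and 16 of the 37 fell, where 23.1% of all genes tested fell. MIR181A1HG, host of a miR-181 pair, went from 11.6, 5.72 and 5.04 to 21.4, 27.2 and 21.7 CPM in cytosol, and from 64.2, 68.6 and 124 to 47.0, 57.7 and 39.0 CPM in granules. Its loss was -2.49 (SE 0.407, edgeR adjusted p 0.000121). For LINC00907 enrichment fell by 2.54 (SE 0.378, edgeR adjusted p 2.27e-05), with 1.69, 1.65 and 0.708 CPM in cytosol without arsenite and 3.53, 4.06 and 4.41 CPM with it. Its granule libraries had 18.8, 20.2 and 31.0 CPM without and 11.4, 13.5 and 10.9 CPM with arsenite. Of the 10 largest losses by the naming rule, LINC01934 (-2.48), SNHG31 (-2.32), LINC01619 (-2.30) and the cation channel gene TRPM3 (-2.32) had this pattern of a rise in cytosol, at mean cytosol levels of 0.541 to 6.04 CPM without arsenite. For LINC01934 those libraries had 0.920, 0.260 and 0.442 CPM, close to what 3 counts give there (0.222 to 0.243 CPM).

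Small nucleolar RNA host genes are spliced noncoding transcripts that release snoRNAs from their introns. Of 21 tested SNHG genes 14 lost and 0 gained, with a median of -1.26. SNHG1 had 84.5, 104 and 114 CPM in cytosol without arsenite and 139, 145 and 147 CPM with it. In granules SNHG1 had 90.0, 79.3 and 127 CPM without and 38.1, 35.5 and 33.3 CPM with arsenite. Neither pair of groups overlapped, and the loss was -1.99 (SE 0.218, edgeR adjusted p 1.45e-06). For SNHG12, whose start window is shown above, enrichment fell by 2.35 (SE 0.288, edgeR adjusted p 3.74e-06), from 24.3, 23.7 and 35.9 to 8.81, 9.88 and 12.0 CPM in granules. For GAS5 it fell by 1.51 (SE 0.204, edgeR adjusted p 8.05e-06), with 167, 212 and 203 CPM in cytosol without and 187, 204 and 211 CPM with arsenite, which overlap. In granules GAS5 fell from 175, 135 and 187 to 58.7, 63.9 and 57.0 CPM. In the WDM line 14 of the 21 lost as well, with a median of -1.05. Each of the 12 WT fits without a library, and the length offsets, gave a median below that of all genes.

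The 7SL RNA of the signal recognition particle and the 7SK RNA that restrains transcription elongation are made by RNA polymerase III and have many near-identical copies, so counts of single copies are uncertain. Of 15 such genes and copies tested, a list chosen after values were seen, 10 lost and 0 gained (median -1.76). In the list of small RNAs of RNA polymerase III, 3 of 5 lost and 0 gained (median -1.91), among them VTRNA1-2. That gene averaged under 0.1 CPM in both granule groups and lies within the span of another gene of the same strand, so no fold is given. RN7SL1 had 937, 1020 and 1044 CPM in cytosol without arsenite and 875, 912 and 875 CPM with it. In granules it had 711, 389 and 218 CPM without and 115, 110 and 84.3 CPM with arsenite, a spread of over 3 times among the first 3 libraries and no overlap with the others. The loss was -1.91 (SE 0.39, edgeR adjusted p 0.000739). RN7SL3 was low in granules throughout, at 15.4, 15.4 and 13.0 CPM without and 1.37, 2.49 and 2.77 CPM with arsenite, with a loss of -2.38.

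Genes of giant cytoskeletal linkers and motors lost most of their excess in granules. Of 14 tested, 10 lost and 0 gained, with a median of -1.34, and in granules 11 fell (23.1% of all genes tested). Their summed granule level was 37310 to 66600 CPM without arsenite and 12380 to 14190 CPM with it. PLEC, which encodes the linker plectin, had 938, 1872 and 733 CPM in granules without arsenite and 129, 136 and 143 CPM with it. In cytosol PLEC had 75.3, 37.2 and 38.0 CPM without and 42.3, 33.8 and 48.2 CPM with arsenite, which overlap. Its log2 enrichment fell from 4.55 to 1.72, a loss of -2.84 (SE 0.435, edgeR adjusted p 6.11e-05). Granule replicate 2 without arsenite was the highest of its group for PLEC, SPTBN1 and the sum.

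SPTBN1, which encodes a spectrin, had 6228, 11810 and 5741 CPM in granules without arsenite and 1229, 1193 and 1396 CPM with it. In cytosol it had 674, 504 and 560 CPM without and 473, 396 and 399 CPM with arsenite. The loss was -2.18 (SE 0.351, edgeR adjusted p 5.4e-05). SYNE2, a nesprin of the nuclear envelope, lost as well (-2.29, SE 0.365, edgeR adjusted p 5.33e-05), as did SPTAN1 (-2.19) and MACF1 (-1.91). These 4 genes remained on the granule side with arsenite, at 1.36 to 2.06. In a list of filamin, spectrin, plakin and nesprin genes chosen after values were seen, 11 of 16 lost and 0 gained (median -1.86). EPPK1, a plakin, was the tenth of the largest losses at -2.30 (SE 0.548, edgeR adjusted p 0.0035). FLNA, which encodes a filamin, missed the threshold at -0.83 (SE 0.335, edgeR adjusted p 0.058), and passed it without cytosol replicate 1 (-0.95) or granule replicate 1 (-0.98) of the unstressed cells. Their mRNAs are built from many exons, with a median of 66 in the 14 genes against 9 in all protein-coding genes tested.

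Other classes of long mRNAs had medians nearer that of all genes. Of 13 KMT2 and SETD histone methyltransferase genes, whose median coding length is 7692 bases, 1 gained (NSD2, 0.55) and 1 lost (KMT2E, -0.80), with a median of 0.06. Without cytosol replicate 1 of the unstressed cells 3 lost and 0 gained, with a median of -0.34, and in the other fits without a library 0 to 3 gained and 0 or 1 lost. Of 20 chromatin remodelling ATPases and co-regulators 1 gained and 2 lost (median -0.12), and without cytosol replicate 1 the losses were 5 and the median -0.48; 3 lost and 0 gained without granule replicate 3 of the unstressed cells. Of 37 centrosomal CEP genes 3 gained and 12 lost (median -0.33). For CEP295 enrichment fell by 1.39 (SE 0.178, edgeR adjusted p 4.97e-06), with 259, 258 and 285 CPM in granules without arsenite and 124, 90.5 and 110 CPM with it. ASPM, a spindle pole protein, lost too (-1.76), whereas the cyclin genes CCNE1 (1.07) and CCNE2 (0.97) gained. Of 20 cell-cycle genes 6 gained and 1, ASPM, lost; 2 lost without cytosol replicate 1 or granule replicate 2 of the unstressed cells. Of these 20, 2 gained (10.0%) and 5 lost (25.0%) in the WDM line (median -0.15), against 7.66% and 16.5% of all genes tested there.

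**Figure D3:**
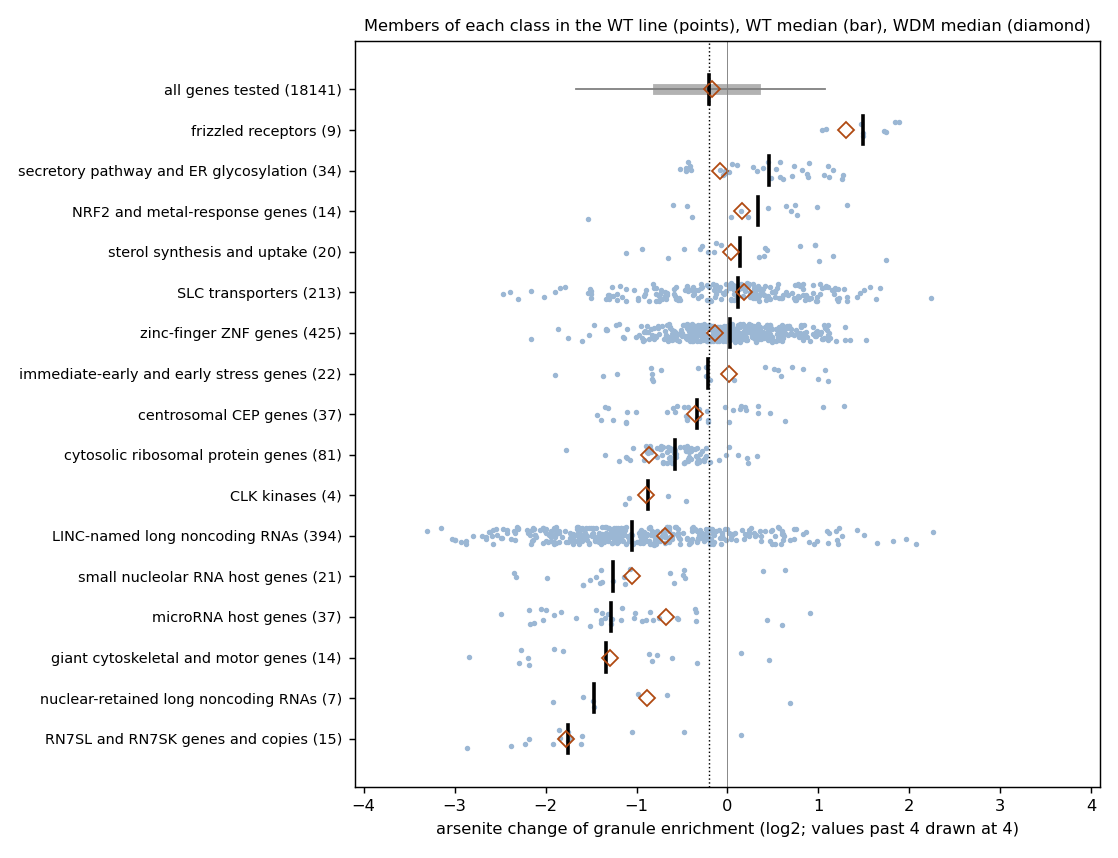
Arsenite change of granule enrichment (log2) for the members of 16 gene classes in the WT line, with 1 point per gene tested, a bar at the WT median and a diamond at the WDM median; the top row gives all genes as the 5th to 95th percentile (line) and the quartiles (thick line). Medians run from 1.49 for frizzled receptors to -1.76 for 7SL and 7SK genes, around the dotted line at the median of all genes, -0.21.

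Ribosomal protein mRNAs lay far on the cytosol side without arsenite, at a median log2 enrichment of -2.47, and at -3.07 with it. Of 81 tested genes of cytosolic ribosomal proteins 32 lost and 0 gained, with a median of -0.58, and 76 of the 81 values were negative. Their summed level was 53570 to 66430 CPM in cytosol without arsenite and 49160 to 51610 CPM with it. In granules it was 10410 to 12940 CPM without and 6241 to 7247 CPM with arsenite, and the ranges were separate in both fractions. The count rested on small differences near the threshold. It was 15 to 18 without 1 of cytosol replicate 1 without arsenite (15), cytosol replicate 1 (18), 2 (16) or 3 (17) with arsenite, granule replicate 1 (17) or 3 (16) without arsenite, or granule replicate 1 with arsenite (17). With the length offsets it was 9, with a median of -0.30. In the WDM line 61 of the 81 lost (median -0.86).

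RPS12 had 435, 514 and 512 CPM in cytosol without arsenite and 385, 389 and 399 CPM with it. In granules it had 73.0, 54.0 and 64.6 CPM without and 23.8, 23.4 and 25.7 CPM with arsenite. The loss was -1.07 (SE 0.225, edgeR adjusted p 0.000757). RPS3 (-1.11, edgeR adjusted p 0.000792) and RPL12 (-1.11, edgeR adjusted p 0.00116) lost by a similar size. These 3 genes were named for their start windows, after values were seen. By the naming rule RPL22 (-1.77), RPL39L (-1.19) and RPS29 (-1.04) came first, and a second gene of the same strand covers 0.435 of the exonic bases of RPL22. Of 15 elongation factors and other TOP mRNAs 3 lost (20.0%, against 19.4% of all genes tested) and 0 gained, with a median of -0.43. The 3 were EIF3H (-0.88), EEF2 (-0.85) and EEF1A1 (-0.80), and 1 gene of the list lost without granule replicate 1 of the unstressed cells. EEF2 was called in 10 and EEF1A1 in 8 of the 12 fits without a library.

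The start motif was searched in RefSeq promoters as a C at the start followed by 4 bases that are each C or T, on the gene's strand. It occurred in 4.07% of 35116 promoters. Among tested genes with a single start in that table, 40 of 53 ribosomal protein genes (75.5%) had it, and 2 of 17 SNHG genes. The 357 other protein-coding genes with the motif had a median change of -0.05, with 55 gaining and 57 losing, and the 7116 without it had a median of -0.06. Among ribosomal protein genes the median was -0.59 for the 40 with the motif and -0.43 for the 13 without. All 8 matched genes of the list of elongation factors and other TOP mRNAs had it, with a median change of -0.02 and 2 losing.

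Other classes of short, abundant mRNAs were close to the median of all genes. Of 70 mitochondrial ribosomal protein genes 4 gained and 9 lost (median -0.04), of 59 nuclear-encoded respiratory chain genes 0 gained and 7 lost (-0.09), and of 32 proteasome genes 1 gained and 0 lost (-0.03; 1 lost without cytosol replicate 1 of the unstressed cells). Without granule replicate 3 of the unstressed cells the losses were 4 of 70 and 4 of 59. For respiratory chain genes 4 lost also without cytosol replicate 1 of the unstressed cells, where 4 gained, without cytosol replicate 3 with arsenite and without granule replicate 1 with arsenite. In the WDM line the same classes had medians of -0.39, -0.50 and -0.39. MRPS31 lost (-1.47, SE 0.196, edgeR adjusted p 7.04e-06) and MRPL19 gained 1.20. With the length offsets 15 of the 70 gained and 3 lost, and 7 of the 59 gained and 1 lost. Of 13 protein genes of the mitochondrial genome 3 lost and 0 gained, with a median of -1.37 and a wide spread. MT-CO1 had 2736, 1462 and 1508 CPM in granules without arsenite and 406, 417 and 890 CPM with it, a loss of -1.898 (SE 0.445, edgeR adjusted p 0.00248). Without granule replicate 3 with arsenite 5 of the 13 lost and the median was -2.37, and without granule replicate 1 of the unstressed cells 1 lost.

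Of the 4 CLK kinases, which phosphorylate SR proteins, CLK2 (-1.12), CLK4 (-1.09) and CLK3 (-0.65) lost and CLK1 had -0.46 without passing the test. CLK3 was not called without granule replicate 3 of the unstressed cells or granule replicate 1 with arsenite. CLK2 went from 30.6, 33.0 and 31.5 to 53.1, 53.6 and 55.1 CPM in cytosol and from 48.2, 56.8 and 69.0 to 38.6, 47.7 and 50.3 CPM in granules, where the groups overlap. Of 18 hnRNP genes 3 gained and 0 lost, with HNRNPF at 1.11, HNRNPA0 at 1.09 and HNRNPR at 1.01; 4 gained and 1 lost without cytosol replicate 1 of the unstressed cells. Of 12 SR protein genes SRSF8 gained 1.49 (edgeR adjusted p 0.000114) and SRSF11 lost (-0.55, edgeR adjusted p 0.0453), the latter in 3 of the 12 fits without a library. In that list 2 gained and 0 lost without cytosol replicate 1 of the unstressed cells. Of 43 translation initiation factors and their kinases 5 gained and 6 lost. EIF1AX gained 1.18 (edgeR adjusted p 0.000806) and EIF4A2 lost (-1.26, edgeR adjusted p 6.02e-05). The losses in that list numbered 2 or 3 without any 1 of the cytosol libraries with arsenite, granule replicate 3 of the unstressed cells or granule replicate 1 with arsenite. Of 425 ZNF genes 64 gained (15.1%) and 44 lost (10.4%) in WT, with a median of 0.02. In WDM 23 gained (5.41%) and 57 lost (13.4%), with a median of -0.13. Over all genes tested 12.0% gained and 19.4% lost in WT, and 7.66% gained and 16.5% lost in WDM. The WT counts of ZNF genes changed when a library was left out. They were 44 gaining and 26 losing without granule replicate 3 of the unstressed cells, and 51 and 29 without cytosol replicate 1 with arsenite.

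Transcript structure separated gains from losses among the 13584 protein-coding genes tested, of which 15.1% gained and 18.0% lost. Features were taken from the GENCODE v44 canonical transcript of each gene. With a 3′ UTR under 300 bases 2.21% of 1995 genes gained and 23.4% lost, and with 4000 bases or more 26.6% of 1881 gained and 15.8% lost. Median changes in these bins ran from -0.38 to 0.11. In the WDM line the share that gained ran from 2.16% to 15.3% across the same bins.

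Exon number ran the opposite way. Of 301 genes with 1 exon 34.9% gained and 3.65% lost, and of 2000 genes with 21 exons or more 8.50% gained and 30.0% lost. Both features counted within each other. Among genes with a 3′ UTR of 2000 bases or more, 37.5% of those with 1 to 5 exons gained against 17.5% of those with 11 or more. Among genes with a 3′ UTR under 1000 bases, the shares were 10.2% and 3.95%. The length offsets, which follow the longest transcript, left 1494 of 4920 genes gaining and 621 losing among those with a 3′ UTR of 2000 bases or more, from 1227 and 766.

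The longest genes stood out on the losing side. Of 1317 protein-coding genes that span 200 kb or more, 51.2% lost and 2.43% gained, with a median of -0.77, against 5.91% losing and 17.1% gaining of the 982 that span under 5 kb. With arsenite 283 of the 1317 rose in cytosol and 521 fell in granules, against 828 and 3196 of the 13584 protein-coding genes. In the WDM line 43.7% of the longest genes lost, with a median of -0.67. The median span was 81.3 kb over the genes that lost, 30.9 kb over those that gained and 33.6 kb over those not called. Without cytosol replicate 1 of the unstressed cells the longest genes had a median of -0.93 and 784 of them lost. The gains among them, 32 in all, were 21 without cytosol replicate 2 and 20 without granule replicate 1, both with arsenite.

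**Figure D4:**
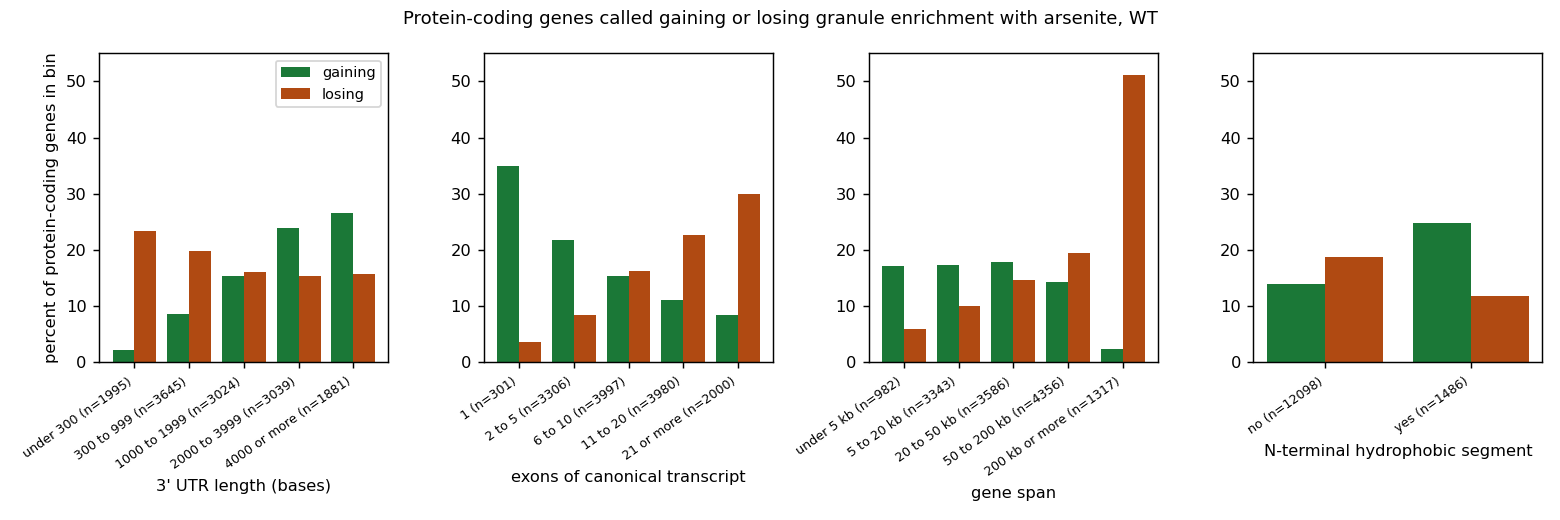
Percent of protein-coding genes in each bin called as gaining (green) or losing (brown) granule enrichment with arsenite in the WT line, by 3′ UTR length, number of exons, gene span and presence of an N-terminal hydrophobic segment, with the number of genes under each bin. The share gaining climbs with 3′ UTR length from 2.21% to 26.6%, and the share losing reaches 51.2% at a span of 200 kb or more.

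A hydrophobic segment near the N terminus, as in signal peptides and signal anchors, was sought as 19 residues with a mean Kyte-Doolittle value of at least 1.6 within the first 35. Of 1486 genes with such a segment 24.8% gained and 11.8% lost, and of 12098 without one 13.9% gained and 18.7% lost. The medians were 0.17 and -0.12, and in the WDM line 0.16 and -0.12. Among genes with a 3′ UTR under 1000 bases the shares gaining were 14.9% with and 5.28% without the segment, and among those with 2000 bases or more 37.5% and 23.4%. Of 61 glycosylation enzymes 43 had the segment, and of 34 genes of the secretory list 13.

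The word TTTTT was counted in 3′ UTRs of at least 200 bases. Of the 12302 such genes 16.5% gained. The share was 4.91% among 1671 genes with none and 22.7% and 21.2% at 8 to 12 and 12 or more per kb. The losing share stayed between 15.7% and 18.8% in all 6 bins. Within 3′ UTRs of 2000 bases or more, 16.5% gained with under 4 per kb and 29.9% with 8 or more.

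Medians by base composition climbed with GC in WDM and varied little in WT, between -0.16 and -0.01 over the bins. In WT, protein-coding transcripts under 40% GC had a median change of -0.01, with 21.8% gaining and 19.3% losing, and those of 60% or more a median of -0.16, with 6.01% gaining and 14.1% losing. In WDM the medians were -0.39 and 0.23, with 3.26% gaining and 32.9% losing at low GC and 13.6% gaining and 3.03% losing at high GC. Along the T-run bins the WT median rose from -0.24 at none to 0.05 at 12 or more per kb, whereas that of WDM was -0.01 and -0.14. The difference between the lines was not tested by class, and by gene it was called for 0 of 18141. The WDM bins were not examined with single libraries left out. Within WT, the losses at low GC numbered 437 and were 263 without granule replicate 3 of the unstressed cells. The gains at high GC numbered 129 and were 85 without that library and 77 without granule replicate 3 with arsenite.

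**Figure D5:**
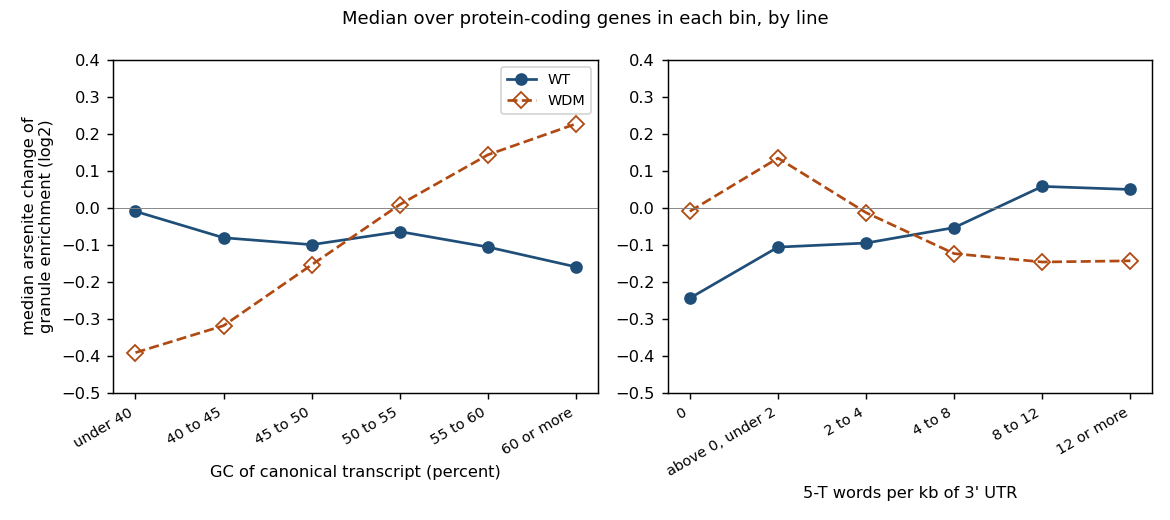
Median arsenite change of granule enrichment (log2) over protein-coding genes in bins of transcript GC (left) and of 5-T words per kb of 3′ UTR (right), with filled circles for the WT and open diamonds for the WDM line. The WDM medians climb from -0.39 to 0.23 with GC while those of WT stay between -0.16 and -0.01.

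The WDM line gave the same comparison in separate libraries. There 4386 genes were called (24.2%), 1390 gaining and 2996 losing. Across all 18141 genes the changes in the lines had a Pearson r of 0.645 and a Spearman rho of 0.678, as a description across genes that are not independent replicates. Of the WT gains 955 were also called in WDM, 43.8% of the WT and 68.7% of the WDM list, and of the losses 1984, 56.3% and 66.2%. Opposite calls were made for 2 genes, and 5457 of the 5704 WT calls had the same sign in WDM. The median change of genes that gained in WT was 0.90 in WT and 0.54 in WDM, and of genes that lost -1.10 and -0.84, where WT values are those the calls were made on.

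The difference between the lines was tested for each gene in the same fit. It was called for 0 of 18141 genes (0%) with edgeR, with 1451 (8.00%) at an unadjusted p under 0.05, and DESeq2 called 0 as well, with 1479 unadjusted. The smallest p by the naming rule belonged to JKAMP, with 0.64 in WT and -0.53 in WDM, a difference of 1.17 (SE 0.304, edgeR adjusted p 0.604). GPR180 had 1.37 and 0.20, and ZDHHC21 had 0.62 and -0.47, with the same adjusted p.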

How the data were processed

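The authors deposited raw read counts per gene in 1 table of 60664 genes, with a column for each library. The submitters' processing notes name Trimmomatic, STAR, Picard, featureCounts and GRCh38, with no versions or settings. Libraries were stranded total-RNA libraries after rRNA removal, per the labels. Coordinates were compared with GENCODE v44, where 56693 of 60463 shared genes had the same start and end. Counts of the 24 tetracycline-treated libraries (8 groups of 3) were fitted together with edgeR 4.0.16 in R 4.3.3: filterByExpr (minimum count 10), TMM factors, a group-means model and robust quasi-likelihood tests, with Benjamini-Hochberg adjustment over all 18141 genes (biological coefficient of variation 0.145). Calls are at an adjusted p under 0.05. CPM values are scaled by TMM. The fit was tested on simulated data. Gene lists are described by counts and medians, with no test of the list. Members, lists and the naming rule were chosen with earlier results of these data known, and 7 of the lists after values were seen. Up to 10 genes a direction were named by largest change, with at least 10 CPM in a WT group, a symbol, a protein-coding or lncRNA annotation and the same sign without any 1 library, then up to 3 called members a direction of each list by smallest p. Genes outside this rule, named after their values were seen, are FZD3, FZD5, FZD7, ITGB1, POFUT1, POMK, FLNA, SPTAN1, CLK1 and those marked in the text. The alternatives tried changed the scaling (RLE, library size), the filter, the tool (DESeq2 1.42.0), the libraries fitted (WT alone, each left out), a replicate block, thinning, or offsets for transcript length. The libraries without tetracycline were not used. The labels give no batch. Some items are not reported here.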

Additional observations from a re-analysis of the deposited data

How the results depend on the processing

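The direction of the change was kept in all 3694 values of 176 named genes under the alternatives run. VTRNA1-2 had no value with the 12 WT libraries alone or with thinned libraries. Of the 3694 values, 251 were no longer past the threshold and 6 newly passed it. The kept direction is little test of the named genes, since the naming rule favours it. It required the genes of largest change to keep their sign without any 1 library, and took list members already called. Among all called genes, 2179 of 2180 that gained and 3522 of 3524 that lost kept their sign in all 12 fits without a WT library. The number of WT genes called stayed within 1.5 times the reported 5704 in each alternative, between 4309 and 6079 when 1 of the 12 WT libraries was left out (1769 to 2362 gaining, 2540 to 3723 losing). For WDM, with 1 of its own 12 libraries left out, these ranges were 3134 to 4561 (934 to 1705 gaining, 2200 to 2889 losing), and for the difference between the lines 0 to 0. The length offsets with the replicate block gave 3595 WT genes and 2590 WDM genes gaining, and the fit without a low-count filter gave 2041 WT genes losing among 39037 tested; the cause was not tested. The length offsets moved 43 of 56 class medians by more than the spread between libraries (42 with the block), and the missing filter 42. The median of the 18141 genes became -0.003 under the offsets, with or without the block. The fit without a low-count filter had a median of 0 over its 39037 genes. With the offsets frizzled genes had a median of 1.64 and SNHG genes of -0.96.

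Cytosol and granule libraries of 1 line and treatment share replicate numbers, and the labels say nothing of pairing. Deviations of same-numbered libraries correlated at -0.09 to 0.07 in WT and -0.03 to 0.21 in WDM without arsenite, and at 0.06 to 0.23 in WT and 0.31 to 0.56 in WDM with it. With arsenite, but not without, every library correlated best with its own number; since not every pair exceeded 0.1, the numbers were not used as pairs. Under the replicate block 6687 WT genes were called (2519 gaining, 4168 losing), 5321 WDM genes (1743 gaining, 3578 losing) and 0 for the difference. The smallest library, granule replicate 1 without arsenite with 5906167 counts, limits low genes: thinning all libraries to it left 15774 genes to test and 4448 calls.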
